A study of Mus musculus with 15 samples.

Results

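The genes described here serve protein folding in the endoplasmic reticulum (ER): the sensors of the unfolded protein response with their transcription factors, the chaperones, the enzymes of disulfide bond formation, the prolyl isomerases and small secreted ER proteins, and the machinery of ER-associated degradation. The 43 members were chosen by name from these functions, with earlier results of these data known. Their shares below therefore describe this list and are not an independent test of it. Each was measured by the transcript cluster that the array annotation gives to that gene alone. Where a gene had more than 1, the cluster with the highest mean signal was used. All 43 of 43 were found among the 19938 genes measured, 7 of them sensors and factors, 9 chaperones, 10 of disulfide formation, 6 prolyl isomerases and secreted proteins and 11 of degradation. Ero1l is listed under its current symbol, Ero1a. Beta cells, the insulin-producing cells of the islet, fold proinsulin, a protein with disulfide bonds, in this compartment. When unfolded protein builds up there, the sensor IRE1 (gene Ern1) splices Xbp1 mRNA, PERK (Eif2ak3) phosphorylates the translation factor eIF2α, and ATF6 is cut to a free transcription factor. XBP1 and ATF6 then raise transcription of chaperone and degradation genes.

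RNA of sorted mouse islet cells was hybridised to 15 Affymetrix Mouse Gene 1.0 ST arrays, 5 each of control beta cells, control alpha cells and Pdx1-deficient cells, all on a mixed B6 and BALB/C strain background. Pdx1 is a transcription factor of pancreas development and beta cells, and the series asks whether it holds beta-cell identity in place against an alpha-cell program. The controls were YFP-positive cells of mice aged 2 months, and the deficient cells, called PKO in the labels, were taken 5 days after tamoxifen (TAM). The genotype labels give glucagon-Cre with RosaYFP to the beta arrays, and RIP-CreER with Pdx1fl/+ and RosaYFP to the alpha arrays. These names are the reverse of the cells in which a glucagon promoter or an insulin promoter (RIP) drives Cre, so groups were taken from the sample titles. For the deficient arrays the labels name no driver, allele or reporter, and call the cells reprogrammed. No age is recorded for the deficient mice, and no day after tamoxifen for the controls. In the differences below, loss of Pdx1 therefore cannot be told apart from tamoxifen, age or driver. The labels do not tie samples to separate animals, and p-values here rest on the spread between samples, which may be technical only. Signals are given on a log2 scale, where a difference of 1 is a 2-fold change if the base, read from the range of the values, is 2.

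The arrays differed in ways that bear on the values below. Pdx1 read 8.85, 9.33, 9.26, 9.02 and 9.26 in beta arrays 1 to 5 and 8.15, 7.98, 8.21, 7.70 and 7.27 in alpha arrays. In the arrays labelled Pdx1-deficient it read 9.12, 7.83, 7.68, 6.53 and 7.59, so the array labelled replicate 1 lay inside the beta range. The Pdx1 difference from beta was -1.39 in Pdx1-deficient arrays (SE 0.34, limma adjusted p = 0.0575) and -1.28 in alpha arrays (limma adjusted p = 0.0473), and the labels do not say which part of the gene was deleted or whether the array probes lie in it. Every statement on Pdx1-deficient cells includes that array unless it says otherwise. The quartiles of all signals lay closest together in Pdx1-deficient arrays 4 and 5, 2.43 and 2.45 log2 units apart, against 2.69 to 2.82 in beta and 2.5 to 2.68 in alpha arrays. Markers of exocrine acinar cells, a cell type with a large ER, were high in alpha array 5, where the summed signal of 20 genes was 15.97 on the log2 scale, against 10.30 to 11.71 in the other alpha arrays, 10.23 to 11.26 in beta arrays and 10.22 to 11.38 in Pdx1-deficient arrays. Of 10 genes that define beta cells, 5 fell in alpha arrays, Pdx1 among them, and of 8 that define alpha cells 5 rose (limma). Of all genes 3.15% were called lower and 0.893% higher there. In Pdx1-deficient arrays 1 of the first fell (Ucn3) and 1 of the second rose (Ndst4), where 0.928% of all genes were called lower and 0.16% higher. The median difference from beta of the beta-cell genes was -1.1 in Pdx1-deficient and -1.18 in alpha arrays, and that of the alpha-cell genes 0.20 and 0.98. The hormone genes separated the groups less. Ins2, an insulin gene, had means of 11.90 in beta, 12.00 in alpha and 12.03 in Pdx1-deficient arrays, and Gcg, the glucagon gene, 12.35, 12.74 and 12.52. In RNA of many sorted cells together, fewer cells of a type and less RNA per cell cannot be told apart.

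The control regions of these genes are shown first, because XBP1 and ATF6 are known to act through short promoter elements that members share. RefSeq promoter windows (GRCm38.p6, 250 bases before to 50 after a start site) were held for 38 of the 43 members. The ER stress element was searched on both strands as CCAAT, 9 bases of any kind, and CCACG. It was found in 10 of the 38 members (26.3%) and in 37 of all 27025 genes with a window (0.137%). The 10 members are shown with the element read from CCAAT to CCACG, those ends in capitals and the spacer in lower case, ordered by their change in Pdx1-deficient arrays from the largest fall to the smallest.
Creld2, chr15:88819520-88819538: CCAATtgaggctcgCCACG
Pdia6, chr12:17266491-17266509: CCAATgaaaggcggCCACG
Ero1b, chr13:12565682-12565700: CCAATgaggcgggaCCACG
Derl3, chr10:75893242-75893260: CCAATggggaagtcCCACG
Calr, chr8:84847075-84847093: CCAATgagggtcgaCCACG
Dnajc3, chr14:118937827-118937845: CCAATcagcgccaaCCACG
Canx, chr11:50325800-50325818: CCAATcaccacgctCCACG
Syvn1, chr19:6046532-6046550: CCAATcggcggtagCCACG
Hspa5, chr2:34772025-34772043: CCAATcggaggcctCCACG
Hsp90b1, chr10:86705638-86705656: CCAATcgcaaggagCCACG
Hsp90b1, chr10:86705533-86705551: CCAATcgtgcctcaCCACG

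Besides the searched ends, each of the 11 elements held 6 or 7 G or C bases among its 9 spacer bases, and 10 of 11 had G or C directly after CCAAT. The G and C share was not counted in other genes or in whole windows, so this describes the printed elements only. Of the 11, 6 ran with the gene and 5 against it, and their first bases lay from -212 to -44 relative to the start site. Hsp90b1, which encodes the chaperone GRP94, had 2. Among the other 27 genes with the element were 0 genes of the pathway lists used below. The end motifs were also counted singly: CCACG in 32 of the 38 members (84.2%, all genes 35.5%) and CCAAT in 30 (78.9%, all genes 41.1%). The related element II, read as ATTGG, 1 base and CCACG, was found in Herpud1 and Dnajb11, 2 of 38 members (5.26%, all genes 0.0444%), and TGACGTG, of the unfolded protein response element, in 5 members (13.2%, all genes 2.22%), Hspa5, Txndc5, Fkbp11, Txndc11 and Mydgf. CCACG is part of both elements, so these counts overlap. A match describes these letters only. The full windows of the 2 element-bearing members with the largest falls show where the element sits, its ends again in capitals. In the Creld2 window it lies on the opposite strand and so reads CGTGG to ATTGG.
Creld2, chr15:88819396-88819695, + strand: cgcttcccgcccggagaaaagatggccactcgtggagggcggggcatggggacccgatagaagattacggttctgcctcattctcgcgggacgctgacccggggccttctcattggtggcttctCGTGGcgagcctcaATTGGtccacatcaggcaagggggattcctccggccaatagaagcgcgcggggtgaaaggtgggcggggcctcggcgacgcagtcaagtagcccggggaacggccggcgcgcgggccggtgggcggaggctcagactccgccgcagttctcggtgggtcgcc
Pdia6, chr12:17266339-17266638, + strand: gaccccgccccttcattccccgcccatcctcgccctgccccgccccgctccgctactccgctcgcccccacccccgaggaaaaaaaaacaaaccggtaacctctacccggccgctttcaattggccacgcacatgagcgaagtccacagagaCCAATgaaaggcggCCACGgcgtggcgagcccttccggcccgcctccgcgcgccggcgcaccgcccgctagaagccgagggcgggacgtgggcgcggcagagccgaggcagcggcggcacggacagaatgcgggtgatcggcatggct

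All 43 members had lower mean signals in Pdx1-deficient than in beta arrays, where 39.2% of all genes did. Differences ran from -1.53 for Mydgf to -0.04 for Ero1a with a median of -0.69, against a median of 0.06 over all genes. A gene was called where its limma adjusted p over all 19938 genes was under 0.05. By that rule 16 of 43 members fell (37.2%, where 0.928% of all genes were called lower) and 0 rose (0.16% of all genes were called higher). By branch, the calls were 3 of 7 sensors and factors, 3 of 9 chaperones, 4 of 10 disulfide genes, 4 of 6 prolyl isomerase and secreted protein genes and 2 of 11 degradation genes. For 24 members all 5 Pdx1-deficient arrays lay below all 5 beta arrays (55.8%, where 3.18% of all genes did), and for 0 members they lay above (2.77% of all genes). A fall of at least 2-fold was seen for 9 members (20.9%, where 1.01% of all genes had one). At an unadjusted limma p under 0.05 there were 37 members, all lower, where 21.8% of all genes had such a p in either direction.

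Members are bright genes, and bright genes as a whole were lower in these arrays. The 1165 genes whose mean signal was at least that of the median member, a set taken after the values were seen, had a median difference of -0.18, and 3.18% of them were called lower and 12.8% were lower without overlap. Of these bright genes 70.7% had a lower mean and 1.97% were at least 2-fold lower. An unadjusted limma p under 0.05, in either direction, was found for 34.6% of them. This set includes the brighter members themselves, and the dimmer members lie below its cut. The calls depended on single arrays. Leaving out Pdx1-deficient replicate 1 raised the count to 23, while calls over all genes, in either direction, went from 217 to 548. Leaving out Pdx1-deficient replicates 2, 4 or 5 gave 3, 0 and 0 members, where 21, 1 and 0 of all genes were called. Leaving out beta replicates 1, 3, 4 or 5 gave 1, 5, 0 and 0 members, where 4, 69, 3 and 4 of all genes were called. In these fits with fewer calls, 34 to 37 members were still lower at an unadjusted limma p under 0.05. With the arrays quantile normalized again 0 members (29 lower at an unadjusted limma p under 0.05) and 4 of all genes were called, with a member median of -0.51. Without Pdx1-deficient replicates 4 and 5 together, an alternative added after the data were seen, 0 members (26 lower at an unadjusted limma p) and 2 of all genes were called. The member median was then -0.54, with all 43 members still below 0.

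**Figure D1:**
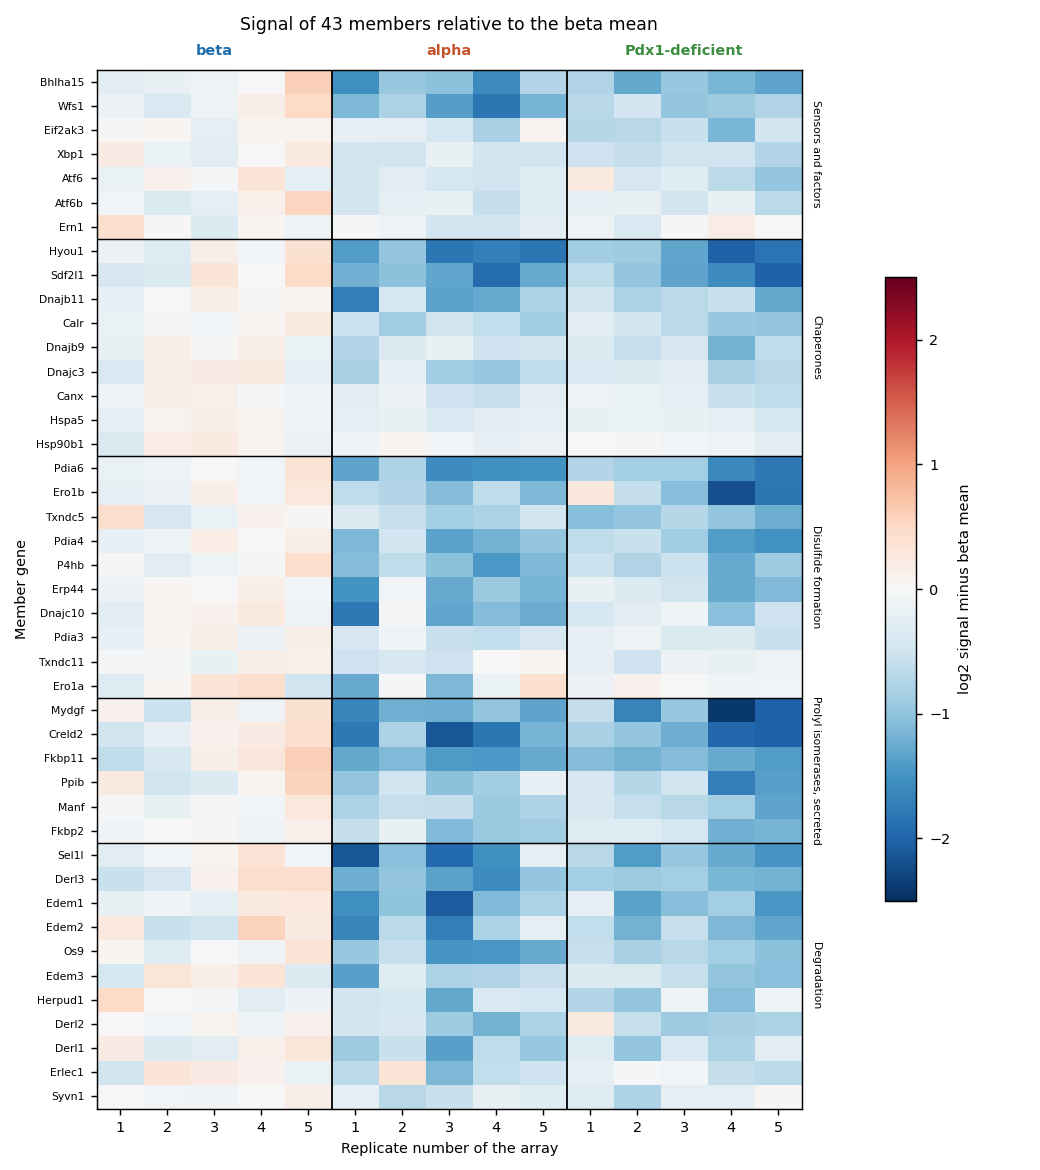
Each row is a member and each column an array, and colour gives the log2 signal minus the mean of the 5 beta arrays, with lines between branches and groups and members ordered within a branch by their Pdx1-deficient difference. Alpha and Pdx1-deficient columns are mostly blue, with Mydgf, Creld2, Hyou1 and Sdf2l1 among the darkest rows, while Ern1, Hsp90b1 and Ero1a are pale.

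In the accounts that follow, where a pair of differences is given for a gene, the first is Pdx1-deficient and the second alpha, each against beta. Of the 3 sensors, Eif2ak3 fell in Pdx1-deficient cells, while Ern1 and Atf6 were not called. Eif2ak3 encodes PERK, the kinase that slows translation under ER stress, and read 8.39, 8.41, 8.14, 8.44 and 8.46 in beta arrays 1 to 5, 8.16, 8.14, 7.93, 7.56 and 8.43 in alpha arrays and 7.65, 7.67, 7.81, 7.23 and 7.89 in Pdx1-deficient arrays. Each Pdx1-deficient array lay below every beta array, while alpha arrays 1, 2 and 5 reached the beta range. The difference from beta was -0.72 (SE 0.15, limma adjusted p = 0.0367) in Pdx1-deficient and -0.32 (SE 0.15, limma adjusted p = 0.243) in alpha arrays. Ern1 encodes the nuclease and kinase IRE1. It read 9.38, 9.01, 8.63, 9.02 and 8.86 in beta, 8.94, 8.86, 8.51, 8.50 and 8.69 in alpha and 8.85, 8.60, 8.94, 9.17 and 8.97 in Pdx1-deficient arrays, and the 3 groups overlapped. Its Pdx1-deficient difference was -0.07 (limma adjusted p = 0.762), with a 95% interval of -0.37 to 0.23, and its sign turned in 3 alternatives, among them quantile normalization (0.16). Atf6 read 9.71, 9.99, 9.82, 10.20 and 9.66 in beta, 9.41, 9.62, 9.43, 9.37 and 9.56 in alpha and 10.12, 9.46, 9.58, 9.23 and 8.91 in Pdx1-deficient arrays. Its alpha arrays all lay below the beta arrays, and so did 4 of the Pdx1-deficient arrays, but the array labelled Pdx1-deficient replicate 1 was near the top of the beta range. The Atf6 difference was -0.42 (limma adjusted p = 0.19) with that array and was called without it (limma adjusted p = 0.0436). Its paralog Atf6b differed by -0.35 (limma adjusted p = 0.206).

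Of the transcription factors, Xbp1 and Bhlha15 were called lower in both Pdx1-deficient and alpha arrays. Xbp1, whose mRNA IRE1 splices, read 9.66, 9.30, 9.17, 9.48 and 9.70 in beta, 8.96, 8.98, 9.28, 8.99 and 8.96 in alpha and 8.94, 8.86, 8.96, 8.96 and 8.73 in Pdx1-deficient arrays. No Pdx1-deficient array reached the lowest beta array, and alpha array 3 alone of the alpha arrays did. Xbp1 fell by 0.57 on the log2 scale in Pdx1-deficient arrays (SE 0.11, limma adjusted p = 0.0316) and fell by 0.43 in alpha arrays (SE 0.11, limma adjusted p = 0.0371). One signal stands for the whole transcript cluster, so the spliced and unspliced forms of Xbp1 were not told apart. Bhlha15 encodes MIST1, a transcription factor of secretory cells. It read 7.50, 7.61, 7.67, 7.77 and 8.39 in beta, 6.26, 6.85, 6.76, 6.20 and 7.06 in alpha and 7.03, 6.51, 6.84, 6.65 and 6.46 in Pdx1-deficient arrays, with every alpha and Pdx1-deficient array below every beta array. Its differences from beta were -1.09 (SE 0.19, limma adjusted p = 0.0316) in Pdx1-deficient and -1.16 (SE 0.19, limma adjusted p = 0.00632) in alpha arrays. Wfs1 encodes wolframin, an ER membrane protein whose loss causes a syndrome with diabetes. It differed by -0.76 (limma adjusted p = 0.0586) in Pdx1-deficient arrays, where it missed the threshold, and fell by 1.25 in alpha arrays (limma adjusted p = 0.00436).

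Of the 9 chaperone genes, Hyou1, Sdf2l1 and Calr fell in Pdx1-deficient arrays and 6 were not called, among them the bright genes Hspa5, Hsp90b1 and Canx. Hspa5 encodes BiP, the HSP70 chaperone of the ER that also binds the sensors, and read 11.57, 11.89, 11.94, 11.88 and 11.69 in beta, 11.55, 11.61, 11.41, 11.53 and 11.55 in alpha and 11.61, 11.62, 11.61, 11.56 and 11.36 in Pdx1-deficient arrays. Beta array 1 lay inside the range of the other groups and the remaining 4 beta arrays above both. The difference was -0.24 (SE 0.09, limma adjusted p = 0.138) in Pdx1-deficient and -0.26 (SE 0.09, limma adjusted p = 0.0973) in alpha arrays, and the 95% intervals, -0.42 to -0.06 and -0.45 to -0.08, hold no fall as large as 0.5. Hsp90b1, which encodes the HSP90 chaperone GRP94, differed by -0.09 (limma adjusted p = 0.613) and -0.09 (limma adjusted p = 0.652) in that order, and the lectin chaperone gene Canx by -0.35 (limma adjusted p = 0.133) and -0.36 (limma adjusted p = 0.11). These 3 genes were among the 8 members with a mean beta signal of at least 11. Over those 8 the median Pdx1-deficient difference was -0.43, against -0.76 over the other 35, and over all 43 members the beta level and the difference had a Spearman correlation of 0.17, given as a description across genes of the same arrays. Whether bright clusters understate a change was not tested.

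Hyou1 encodes GRP170, a large chaperone that exchanges nucleotide on BiP. It read 10.35, 10.17, 10.64, 10.41 and 10.87 in beta, 9.10, 9.52, 8.69, 8.77 and 8.66 in alpha and 9.61, 9.59, 9.18, 8.46 and 8.64 in Pdx1-deficient arrays. The lowest beta array was above every array of the other groups, and Hyou1 fell 2.62-fold in Pdx1-deficient cells (log2 difference -1.39, SE 0.24, limma adjusted p = 0.0309) and 2.90-fold in alpha cells (log2 difference -1.54, SE 0.24, limma adjusted p = 0.0052). Sdf2l1, a partner of BiP and its co-chaperone ERdj3, read 9.05, 9.12, 9.80, 9.47 and 9.95 in beta, 8.27, 8.45, 8.18, 7.56 and 8.22 in alpha and 8.84, 8.50, 8.16, 7.90 and 7.46 in Pdx1-deficient arrays. It too was lower in every array of these groups than in any beta array, with a difference of -1.30 (limma adjusted p = 0.0316) in Pdx1-deficient and -1.34 (limma adjusted p = 0.0108) in alpha arrays. The lectin chaperone gene Calr read 10.81, 10.92, 10.91, 11.02 and 11.19 in beta, 10.43, 10.11, 10.48, 10.36 and 10.11 in alpha and 10.68, 10.51, 10.30, 10.02 and 9.98 in Pdx1-deficient arrays, and fell by 0.67 in each comparison with beta (SE 0.14, limma adjusted p = 0.0339 and 0.0158), with neither group overlapping beta. The genes of 3 further BiP co-chaperones of the DnaJ family were not called in Pdx1-deficient arrays: Dnajb9 (ERdj4) differed by -0.64 (limma adjusted p = 0.0517), Dnajb11 (ERdj3) by -0.76 (limma adjusted p = 0.077) and Dnajc3 (P58IPK) by -0.51 (limma adjusted p = 0.115). In alpha arrays Dnajb11 fell by 1.11 (limma adjusted p = 0.00993) and Dnajc3 fell by 0.69 (limma adjusted p = 0.0292), while Dnajb9 differed by -0.45 (limma adjusted p = 0.101).

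**Figure D2:**
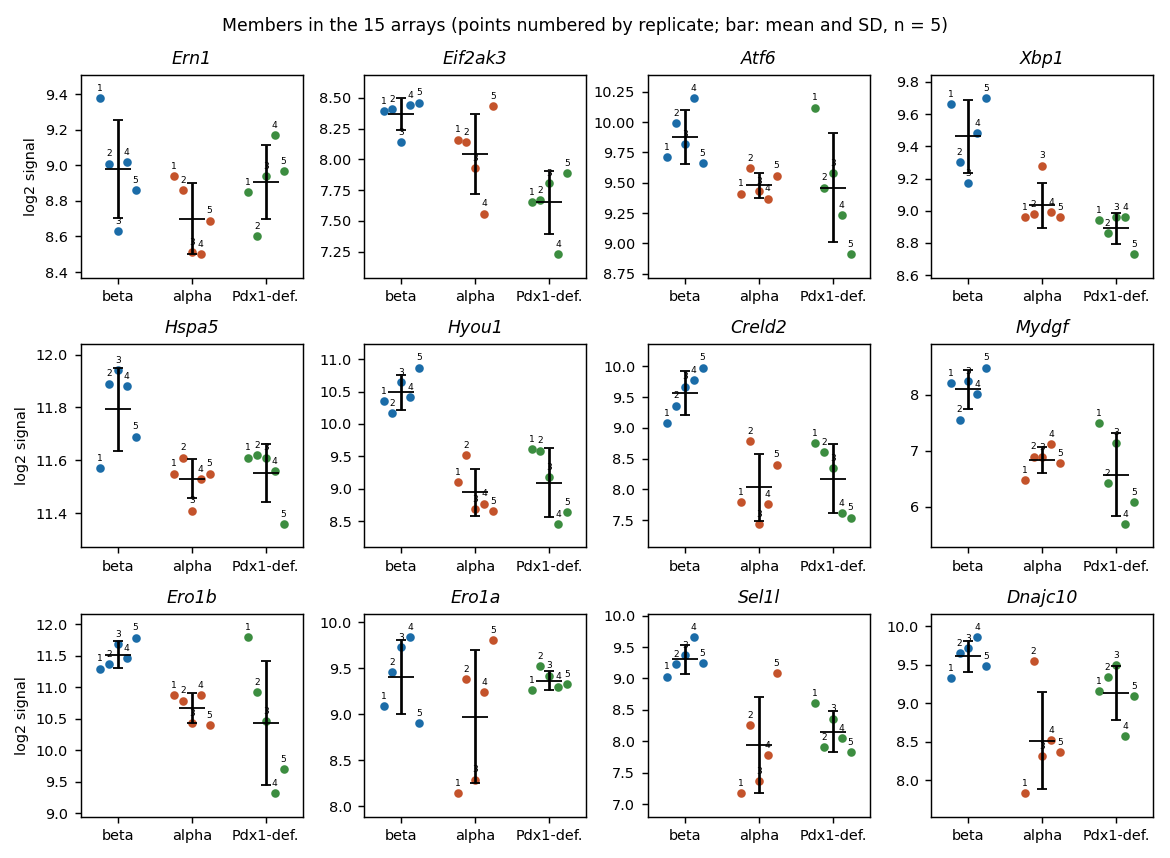
Each panel plots the log2 signal of 1 member in the 15 arrays, with points numbered by replicate and bars for the group mean and SD (n = 5); axes differ between panels and do not start at 0. Hyou1, Creld2 and Mydgf separate beta from the other groups, Ern1 and Ero1a overlap in all groups, and the array labelled Pdx1-deficient replicate 1 lies at or above beta level for Atf6 and Ero1b.

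Of the 10 disulfide genes, P4hb, Pdia6, Pdia4 and Txndc5 fell in Pdx1-deficient arrays and 6 were not called. P4hb encodes protein disulfide isomerase itself, which forms and rearranges the disulfide bonds of proinsulin among other proteins, and read 11.26, 10.95, 11.09, 11.19 and 11.64 in beta, 10.15, 10.59, 10.21, 9.79 and 10.11 in alpha and 10.69, 10.48, 10.68, 9.96 and 10.33 in Pdx1-deficient arrays. No array of the other groups reached the beta range, and P4hb differed by -0.80 (SE 0.17, limma adjusted p = 0.0367) in Pdx1-deficient and -1.06 (SE 0.17, limma adjusted p = 0.00549) in alpha arrays. Pdia6 (P5) read 10.71, 10.76, 10.89, 10.82 and 11.22 in beta, 9.57, 10.11, 9.30, 9.34 and 9.38 in alpha and 10.14, 10.04, 10.04, 9.26 and 9.10 in Pdx1-deficient arrays. It had the largest fall of a disulfide gene that was called in Pdx1-deficient arrays, -1.17 (limma adjusted p = 0.0316), beside -1.34 (limma adjusted p = 0.00549) in alpha arrays, and here too the beta arrays stood above all others. Pdia4 (ERp72) read 10.27, 10.36, 10.65, 10.46 and 10.63 in beta, 9.35, 9.99, 9.14, 9.30 and 9.50 in alpha and 9.83, 9.92, 9.61, 9.07 and 8.96 in Pdx1-deficient arrays. Its differences were -0.99 (limma adjusted p = 0.0322) and -1.02 (limma adjusted p = 0.0123), again without overlap with beta. Txndc5, a thioredoxin-domain isomerase, read 8.71, 7.85, 8.11, 8.38 and 8.30 in beta, 7.90, 7.69, 7.42, 7.47 and 7.80 in alpha and 7.20, 7.28, 7.55, 7.29 and 7.05 in Pdx1-deficient arrays, where alpha array 1 alone of the alpha arrays read above the lowest beta array. Its change of -1.0 (limma adjusted p = 0.0234) in Pdx1-deficient arrays stood beside -0.61 (limma adjusted p = 0.0341) in alpha arrays.

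Pdia3 (ERp57), which works with the lectin chaperones, differed by -0.33 (limma adjusted p = 0.131) in Pdx1-deficient and -0.42 (limma adjusted p = 0.0512) in alpha arrays and was not called in either. Neither of the oxidases that recharge protein disulfide isomerase was called. Ero1b, the form enriched in islets, read 11.30, 11.37, 11.69, 11.46 and 11.79 in beta, 10.88, 10.79, 10.44, 10.88 and 10.40 in alpha and 11.80, 10.92, 10.46, 9.32 and 9.71 in Pdx1-deficient arrays. Pdx1-deficient array 1 exceeded all beta arrays and arrays 4 and 5 were the lowest of all 15. The difference of -1.08 (SE 0.34, limma adjusted p = 0.113) was not called, and without array 1 it was (limma adjusted p = 0.0136, difference -1.42). Ero1a, the form of most tissues, read 9.09, 9.46, 9.73, 9.84 and 8.90 in beta, 8.14, 9.38, 8.29, 9.24 and 9.81 in alpha and 9.26, 9.52, 9.42, 9.30 and 9.33 in Pdx1-deficient arrays. Its Pdx1-deficient arrays lay within the beta range, with a difference of -0.04 (limma adjusted p = 0.936) and a 95% interval of -0.63 to 0.55, and the sign turned in 3 alternatives, among them quantile normalization (0.17). Erp44, which holds the oxidases in the early secretory pathway, differed by -0.68 (limma adjusted p = 0.148), Dnajc10, which encodes the reductase ERdj5, by -0.48 (limma adjusted p = 0.275) and Txndc11 by -0.24 (limma adjusted p = 0.281). In alpha arrays Erp44 fell by 0.98 (limma adjusted p = 0.0388) and Dnajc10 fell by 1.09 (limma adjusted p = 0.0286), although alpha array 2 read 9.40 and 9.55, inside the beta ranges, where the other 4 alpha arrays read 7.96 to 8.54 and 7.83 to 8.52.

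Of the 6 prolyl isomerase and small secreted protein genes, Mydgf, Creld2, Fkbp11 and Manf fell in Pdx1-deficient arrays, and the median difference of the 6 was -1.07. Mydgf encodes a secreted growth factor that carries an ER retention signal, and read 8.21, 7.56, 8.25, 8.01 and 8.49 in beta, 6.48, 6.90, 6.89, 7.12 and 6.79 in alpha and 7.50, 6.43, 7.15, 5.70 and 6.09 in Pdx1-deficient arrays. It fell 2.89-fold in Pdx1-deficient cells (log2 difference -1.53, SE 0.28, limma adjusted p = 0.0316) and 2.41-fold in alpha cells (log2 difference -1.27, SE 0.28, limma adjusted p = 0.0244), with Pdx1-deficient arrays 4 and 5 below every other array and no overlap of either group with beta. Creld2, the stress-induced gene with the promoter window printed at the start, read 9.07, 9.36, 9.67, 9.77 and 9.98 in beta, 7.79, 8.78, 7.44, 7.76 and 8.40 in alpha and 8.75, 8.61, 8.35, 7.61 and 7.54 in Pdx1-deficient arrays. Its differences were -1.40 (SE 0.29, limma adjusted p = 0.0347) and -1.54 (SE 0.29, limma adjusted p = 0.0108), and every beta array read higher than every other array. Fkbp11, an ER prolyl isomerase gene of secretory cells, read 7.46, 7.68, 8.23, 8.38 and 8.69 in beta, 6.81, 6.99, 6.68, 6.66 and 6.83 in alpha and 7.0, 6.91, 7.0, 6.83 and 6.70 in Pdx1-deficient arrays. The lowest beta array was above all others, and Fkbp11, at -1.20 (limma adjusted p = 0.0234) and -1.29 (limma adjusted p = 0.0036), was called in 17 of 24 alternatives of the Pdx1-deficient comparison, the most of any member.

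Manf, whose product is an ER protein that protects beta cells and neurons under stress, read 10.74, 10.58, 10.81, 10.71 and 11.03 in beta, 9.98, 10.20, 10.17, 9.84 and 10.00 in alpha and 10.37, 10.20, 10.08, 9.92 and 9.46 in Pdx1-deficient arrays. It fell by 0.77 in Pdx1-deficient arrays (SE 0.15, limma adjusted p = 0.0316) and fell by 0.74 in alpha arrays (SE 0.15, limma adjusted p = 0.014), without overlap with beta. Ppib, the gene of cyclophilin B, differed by -0.94 (limma adjusted p = 0.0843) and -0.71 (limma adjusted p = 0.142), and Fkbp2 by -0.69 (limma adjusted p = 0.0923) and -0.73 (limma adjusted p = 0.0538), neither of them called. For both, Pdx1-deficient arrays 4 and 5 read lowest of that group, 7.81 and 8.16 for Ppib and 11.08 and 11.11 for Fkbp2, where the other 3 read 8.79 to 9.10 and 11.84 to 11.96.

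In the degradation branch, which returns misfolded proteins to the cytosol for the proteasome, Derl3 and Os9 fell in Pdx1-deficient arrays and the other 9 members were not called. Derl3, a derlin of the export channel, read 7.12, 7.26, 7.78, 8.12 and 8.12 in beta, 6.46, 6.69, 6.35, 6.11 and 6.71 in alpha and 6.83, 6.77, 6.83, 6.54 and 6.49 in Pdx1-deficient arrays. Every beta array was above every other array, and the differences were -0.99 (SE 0.19, limma adjusted p = 0.0316) and -1.22 (SE 0.19, limma adjusted p = 0.00524). Os9, a lectin that delivers glycoproteins to the ubiquitin ligase, read 10.13, 9.76, 10.09, 10.00 and 10.43 in beta, 9.14, 9.50, 8.61, 8.63 and 8.83 in alpha and 9.51, 9.28, 9.39, 9.23 and 9.05 in Pdx1-deficient arrays. It differed by -0.79 (limma adjusted p = 0.0367) and -1.14 (limma adjusted p = 0.0038), also without overlap. Sel1l, the adaptor of that ligase, had the largest mean difference of the branch, -1.15 (SE 0.29, limma adjusted p = 0.0617), with every Pdx1-deficient array below every beta array. It fell by 1.37 in alpha arrays (limma adjusted p = 0.0176). The SE pools the 3 groups, and Sel1l had an SD of 0.23 in beta, 0.33 in Pdx1-deficient and 0.76 in alpha arrays. In alpha arrays Sel1l read 7.18, 8.26, 7.37, 7.78 and 9.08, and the highest, array 5, is the one with the high acinar signal. Syvn1, the gene of the ligase HRD1 itself, differed by -0.31 (limma adjusted p = 0.204) and -0.39 (limma adjusted p = 0.117).

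Of the mannosidase-like genes that mark glycoproteins for degradation, Edem1 differed by -0.99 (limma adjusted p = 0.0618) in Pdx1-deficient arrays, Edem2 by -0.96 (limma adjusted p = 0.102) and Edem3 by -0.66 (limma adjusted p = 0.118). In alpha arrays Edem1 fell by 1.30 (limma adjusted p = 0.0115), with -1.02 (limma adjusted p = 0.0653) for Edem2 and -0.76 (limma adjusted p = 0.0601) for Edem3. The derlin genes Derl1 and Derl2 differed by -0.55 (limma adjusted p = 0.124) and -0.56 (limma adjusted p = 0.136) in Pdx1-deficient arrays and, in alpha arrays, Derl1 fell by 0.89 (limma adjusted p = 0.0169) and Derl2 fell by 0.74 (limma adjusted p = 0.0476). Derl2 read 9.66 in the array labelled Pdx1-deficient replicate 1, above every beta array, against 8.53 to 8.83 in replicates 2 to 5, and was called without replicate 1 (limma adjusted p = 0.0135). Herpud1, a scaffold of the ligase complex, differed by -0.60 (limma adjusted p = 0.157) and -0.60 (limma adjusted p = 0.148), and Erlec1, a lectin related to Os9, by -0.31 (limma adjusted p = 0.409) and -0.52 (limma adjusted p = 0.218).

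**Figure D3:**
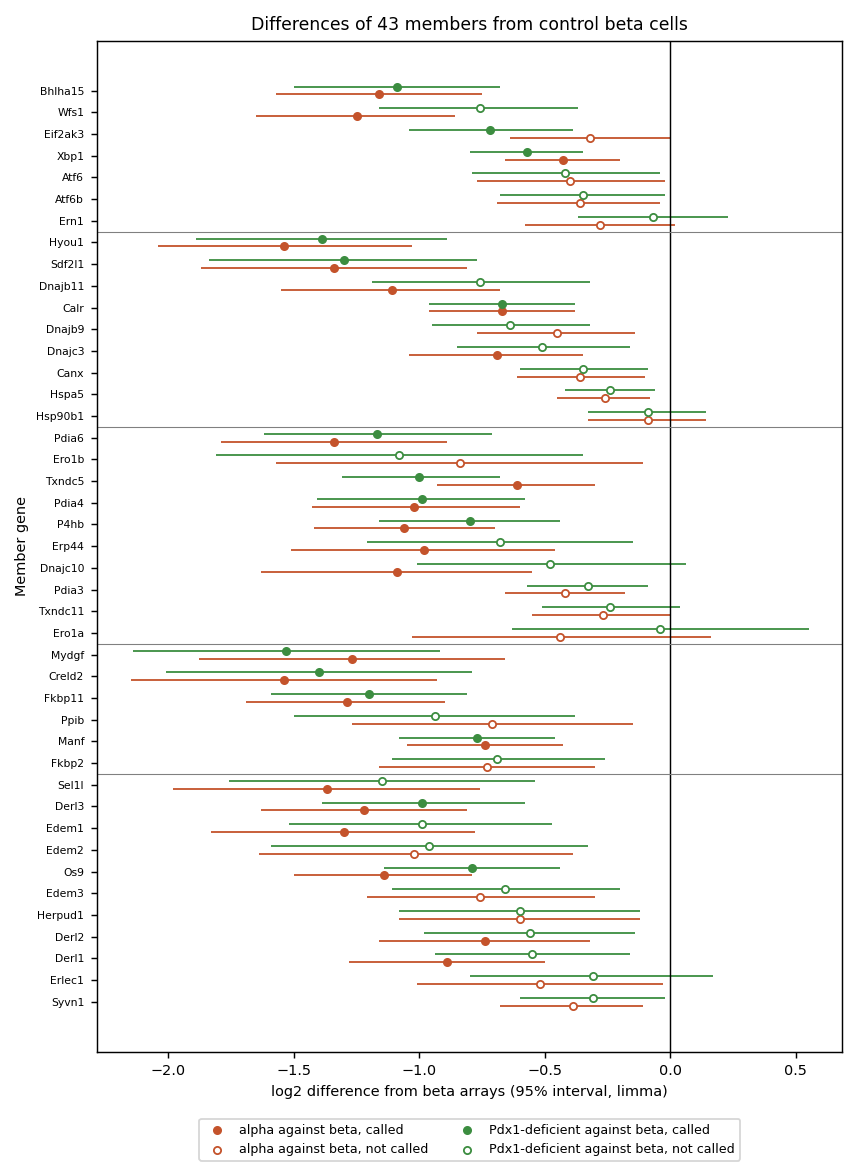
Points give each member's log2 difference from beta arrays for Pdx1-deficient (green) and alpha (orange) arrays with 95% limma intervals, filled where the adjusted p was under 0.05, grouped by branch. All points lie below 0, and the intervals of Ern1, Hsp90b1, Ero1a, Txndc11, Dnajc10 and Erlec1 in the Pdx1-deficient comparison reach 0 or above.

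Control alpha cells, set against the same 5 beta arrays, gave the level of these genes in the neighbouring glucagon-producing cell type. All 43 members again had lower means (41.8% of all genes did), with a median of -0.74 against 0.04 over all genes. Of the 43, 24 fell (55.8%, where 3.15% of all genes were called lower) and 0 rose (0.893% of all genes were called higher). For 24 members all alpha arrays lay below all beta arrays (4.05% of all genes), and for 0 members above (2.29% of all genes). At an unadjusted limma p under 0.05 there were 38 members, all lower (20.7% of all genes in either direction), and 17 were at least 2-fold lower (1.52% of all genes). Among the 1165 bright genes 9.87% were called lower, with a median of -0.16. Of them 65.2% had a lower mean, 14.5% were lower without overlap and 3.09% were at least 2-fold lower. An unadjusted limma p under 0.05, in either direction, was found for 39.2% of them. Between 17 and 28 members were called when any 1 of the 15 arrays was left out, where 1.32% to 5.11% of all genes were called lower. Without alpha array 5, the array with the acinar signal, 18 fell (1.65% of all genes were called lower) and the median was -0.77. Whether acinar RNA bears on the alpha difference was not tested. Since both comparisons share the beta arrays, their values are given side by side and not as independent results.

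Pdx1-deficient and alpha arrays were also compared directly. Of the members, 0 were called in either direction (limma, 0.0% of all genes), and 4 had an unadjusted limma p under 0.05, 9.3% of members where 6.0% of all genes and 10.2% of the 1165 bright genes had one. Those 4, named after their values were seen, were Wfs1 and Dnajc10, higher in Pdx1-deficient arrays by 0.49 and 0.61, and Eif2ak3 and Txndc5, with differences of -0.39 and -0.38 (limma adjusted p from 0.688 to 0.766). Eif2ak3 was thus called against beta in Pdx1-deficient but not in alpha arrays, and the direct test did not pass after adjustment (limma adjusted p = 0.705, unadjusted 95% interval -0.72 to -0.07). All 43 overlapped between the groups, where 0.281% of all genes were lower and 0.356% higher without overlap, and 0 members were lower by 2-fold (0.476% of all genes). The median difference over members was 0.08, and 10 of 43 lay below 0, where 42.3% of all genes and 52.4% of the bright genes did. The 11 degradation genes had a median of 0.20. A missed threshold does not show equal levels: the unadjusted 95% interval was -0.16 to 0.20 for Hspa5, -0.35 to 0.65 for Hyou1, -0.48 to 0.75 for Creld2 and -0.97 to 0.49 for Ero1b. Without alpha array 2, 1 member was called higher in Pdx1-deficient arrays and 0 lower, where 145 of all genes were called in either direction, 73 of them lower.

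The arrays of a group did not carry these genes alike. The mean over the 43 members was 9.59, 9.60, 9.71, 9.81 and 9.86 in beta arrays, 8.79, 9.21, 8.70, 8.79 and 9.02 in alpha arrays and 9.29, 9.06, 9.12, 8.74 and 8.74 in Pdx1-deficient arrays, with no overlap between beta and the rest. The array labelled Pdx1-deficient replicate 1, with Pdx1 at the beta level, had the highest member mean of its group and the highest signal of its group for 23 of 43 members, yet 30 of its 43 members were below every beta array and 2 above. Its summed log2 signal of the 10 beta-cell genes was 14.55, against 14.33 to 14.49 in beta and 13.83 to 14.09 in the other Pdx1-deficient arrays. That of the 8 alpha-cell genes was 13.80, against 13.32 to 13.52 in beta and 13.42 to 13.67 in the other Pdx1-deficient arrays. Replicate 5 held the lowest signal of the group for 24 members and replicate 4 for 12. In alpha arrays, replicate 2 was highest for 24 members. The spread between Pdx1-deficient arrays was widest in the prolyl isomerase and secreted branch, whose array means had an SD of 0.44, and narrowest in the sensors and factors (SD 0.11). Arrays 4 and 5, the lowest of the group in every branch but degradation, are also those with the narrowest quartiles, and 0 members were called without them, as given above.

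**Figure D4:**
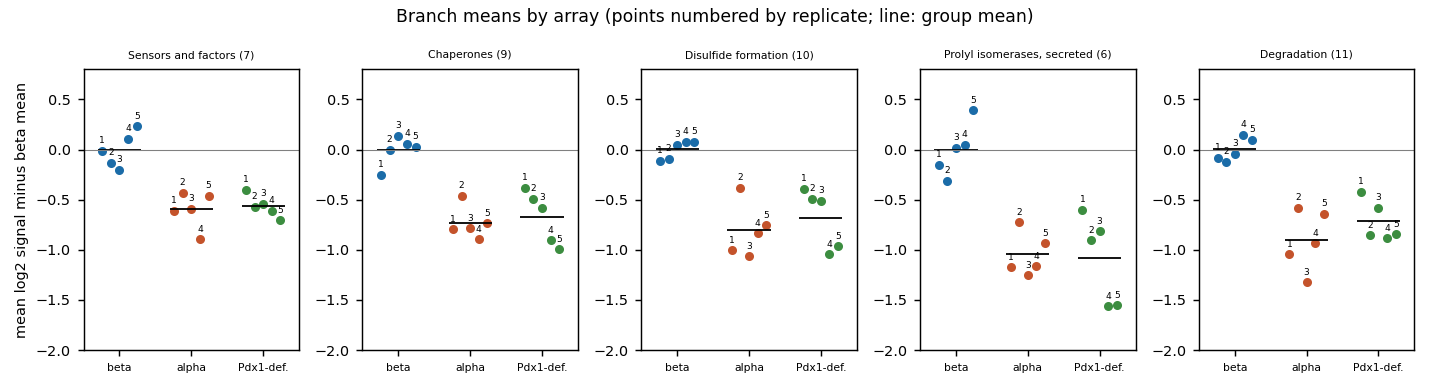
Each panel shows a branch, with its number of members in brackets, and each point the mean log2 signal of its members in 1 array minus the mean of the 5 beta arrays; points are numbered by replicate and lines are group means. Beta arrays lie above all others in every branch, and the secreted branch shows Pdx1-deficient arrays 4 and 5 lowest, at member means of 8.16 and 8.17 against a beta mean of 9.72.

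Further genes of the pathway, from lists that hold no member, were counted in the same way, beside 0.928% of all genes and 3.18% of the 1165 bright genes called lower in Pdx1-deficient arrays, and 3.15% and 9.87% in alpha arrays. Called higher were 0.16% of all genes in Pdx1-deficient arrays and 0.893% in alpha arrays. In the PERK and amino acid stress branch 3 of 13 genes fell and 0 rose in Pdx1-deficient arrays, with a median of -0.45: Asns, asparagine synthetase, by -1.28 (limma adjusted p = 0.0234), Chac1, a glutathione-degrading enzyme, by -1.25 (limma adjusted p = 0.0322), and Atf4, the transcription factor of this branch, by -0.68 (limma adjusted p = 0.0491). In alpha arrays 2 of the 13 fell, Asns by -1.11 (limma adjusted p = 0.00872) and Atf5 by -0.62 (limma adjusted p = 0.0296). The CREB3 list of 13 genes held the CREB3 family, Mbtps1, which encodes a protease that cuts ATF6, and Nfya, Nfyb, Nfyc, Yy1, Traf2, Tmbim6 and Rtcb. Of these 13, 1 fell in each comparison, Creb3l1, an ER-bound transcription factor, by -1.31 (limma adjusted p = 0.0234) in Pdx1-deficient and -1.55 (limma adjusted p = 0.00211) in alpha arrays. Of 37 other folding genes 4 fell in Pdx1-deficient arrays and 7 in alpha arrays, and 0 rose in either. The largest in Pdx1-deficient arrays were Txndc16 (-0.99 (limma adjusted p = 0.0429)), the glucosidase II subunit gene Ganab (-0.82 (limma adjusted p = 0.0316)) and its partner Prkcsh (-0.75 (limma adjusted p = 0.047)), followed by Cnpy2 (-0.73 (limma adjusted p = 0.0324)). In alpha arrays the largest were Fkbp9 (-1.13 (limma adjusted p = 0.0114)), the glucosyltransferase gene Uggt1 (-1.12 (limma adjusted p = 0.00961)) and Qsox2 (-0.95 (limma adjusted p = 0.0347)). Of 32 other degradation genes 3 fell in each and 0 rose: Rhbdd1 (-1.07 (limma adjusted p = 0.0495)), the ubiquitin ligase gene Rnf5 (-0.99 (limma adjusted p = 0.047)) and Selenos (-0.90 (limma adjusted p = 0.0316)) in Pdx1-deficient arrays, and Fbxo2 (-1.42 (limma adjusted p = 0.0247)), Selenos (-1.08 (limma adjusted p = 0.0052)) and Rnf5 (-0.89 (limma adjusted p = 0.0376)) in alpha arrays. List medians in Pdx1-deficient arrays were -0.06, -0.33 and -0.32 for the CREB3, folding and degradation lists. In alpha arrays the shares of the CREB3 and degradation lists called lower were no larger than that of the bright genes.

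The members with the full element were found among both called and not called genes. In Pdx1-deficient arrays Creld2, Pdia6, Derl3 and Calr fell, while Ero1b, Dnajc3, Canx, Syvn1, Hspa5 and Hsp90b1 were not called, with differences from -1.08 to -0.09. Of all 43 members 37.2% were called lower there, and of all genes 0.928%. Hyou1 and Manf, which were called, are among the 5 members with no window searched. Of the members with the largest falls, Mydgf, Sdf2l1 and Fkbp11 had a window without the element, and Creld2 and Pdia6 had a window with it. Whether the element goes with a change in signal was not tested.

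**Figure D5:**
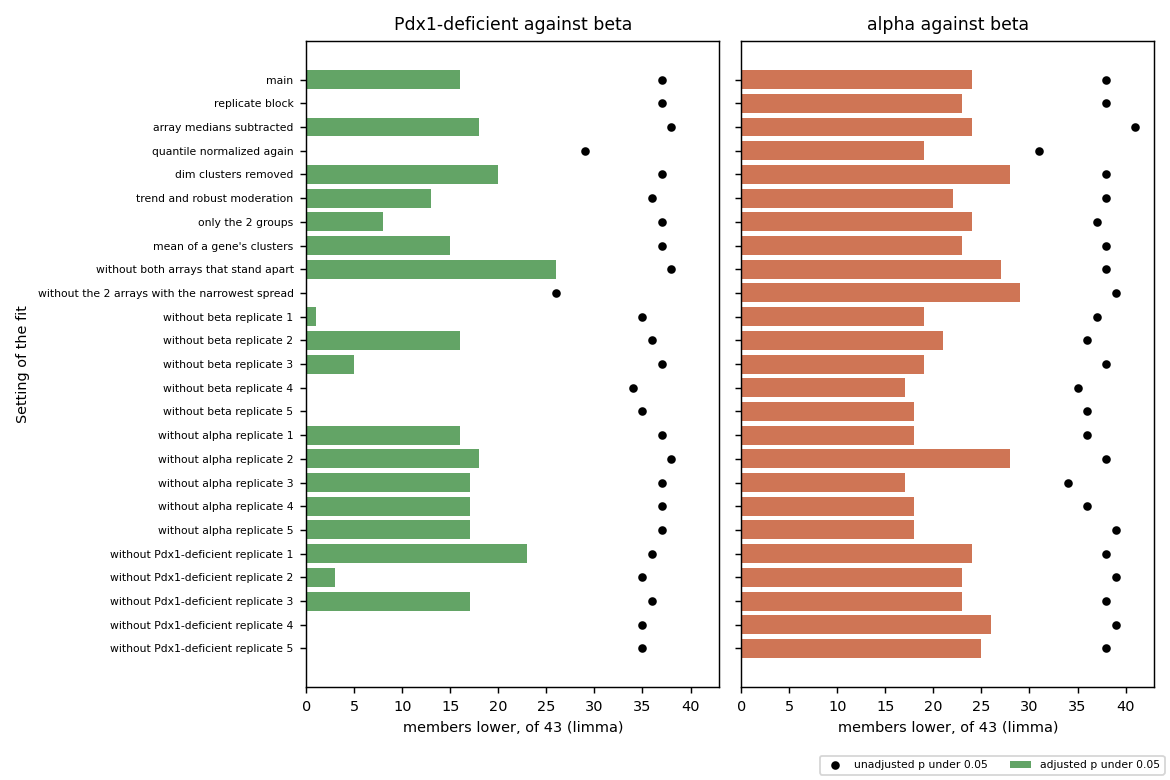
Bars give the number of the 43 members called lower (limma adjusted p under 0.05) and points the number lower at an unadjusted p under 0.05, under each setting of the fit, for Pdx1-deficient against beta (left) and alpha against beta (right); the 2 arrays that stand apart are Pdx1-deficient replicate 1 and alpha replicate 2, and those with the narrowest spread are Pdx1-deficient replicates 4 and 5. On the left the bars run from 0 to 26 while the points stay between 26 and 38, and on the right the bars run from 17 to 29.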

How the data were processed

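RNA of 15 samples was measured on Affymetrix Mouse Gene 1.0 ST arrays, from 500 ng of total RNA per labelling per the labels' protocols. The authors' deposited values are log2 signals, 1 per transcript cluster and array (35556 clusters, 2.11 to 13.45, array medians 5.88 to 6.05); per the submitters' processing notes they used Affymetrix Expression Console. No version, summarization method or genome build is given in the sources used here. The array annotation gave 1 symbol to 21789 clusters, several to 1621 and none to 12146. Of the 19938 genes, 999 had more than 1 cluster, and the brightest was used. Groups came from sample titles. Differences were tested with limma 3.58.1 (lmFit, eBayes) in R 4.3.3 on 3 group means over all 15 arrays, with Benjamini-Hochberg adjustment over all genes and a threshold of 0.05. The fit was checked on simulated data. Replicate numbers were not used as pairs, because same-numbered arrays did not deviate together in every pair (correlations -0.172 to 0.224).

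Members and gene lists were chosen with earlier results of these data known. Up to 4 called members per branch, at least 2, and Ern1, Eif2ak3, Atf6 and Hspa5 are given in all arrays, and up to 3 called genes per pathway list; Sel1l, Ero1b, Ero1a and single arrays of Erp44, Dnajc10, Derl2, Ppib and Fkbp2 were added after their values were seen. Alternatives changed the arrays included, the scaling, the filter on dim clusters, the moderation, the groups in the fit, the cluster per gene and a replicate block. Promoter motifs were counted per gene over all its windows. Pdx1-deficient and alpha cells share the beta arrays as control, and 5 arrays per group limit the precision.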

Additional observations from a re-analysis of the deposited data

Results flagged for a closer look

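In 6 of 129 groups of 5 arrays (43 members in 3 groups), 1 array lay far from the other 4, with a gap to its neighbour above 0.71 of the whole range. Chance alone marks about 1 in 20 groups. Derl2 read 9.66 in Pdx1-deficient replicate 1 against 8.53 to 8.83 in the others, and Hspa5 read 11.36 in Pdx1-deficient replicate 5 against 11.56 to 11.62. Txndc11 was at 7.26 in Pdx1-deficient replicate 2, where the others read 7.58 to 7.65. In alpha replicate 3, Xbp1 stood high at 9.28 against 8.96 to 8.99, and Herpud1 stood low at 8.98 against 9.81 to 9.88. Eif2ak3 was low in beta replicate 3, at 8.14 against 8.39 to 8.46.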

How the results depend on the processing

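In alpha against beta, the count of 24 members called stayed within 1.5 times under all 24 alternatives, from 17 to 29, and all 43 members kept their sign. In Pdx1-deficient against beta, 16 members were called, but 0 with the replicate block (37 lower at an unadjusted limma p under 0.05), 0 when quantile normalized again, 0 without Pdx1-deficient replicates 4 and 5, 8 with only the 2 groups in the fit, and 26 without Pdx1-deficient replicate 1 and alpha replicate 2 together. Leaving out 1 array gave from 0 to 23, and over all genes 217 calls became 0 to 626 across alternatives. No member was called in all 15 leave-outs; Fkbp11 was in 11. The median of -0.69 ran from -0.78 to -0.51. The block removes a number that the labels do not tie to a shared animal or day; in alpha against beta 23 were called with it. Ern1 and Ero1a, neither called, turned sign: Ern1 to 0.16 when quantile normalized again, 0.03 without beta replicate 1 and 0.00 without Pdx1-deficient replicate 2, (leave-outs -0.16 to 0.03), and Ero1a to 0.17 when quantile normalized again, 0.04 without beta replicate 3 and 0.07 without beta replicate 4 (leave-outs -0.17 to 0.07). In Pdx1-deficient against alpha, the median of 0.08 rose to 0.32 without Pdx1-deficient replicates 4 and 5, and leave-outs gave 0 to 1 member called. The cause of these shifts was not tested. Over members, 196 of 1032 alternative values in Pdx1-deficient against beta crossed the threshold, 165 out and 31 in. The 16 called members had limma adjusted p from 0.0234 to 0.0367, and 5 arrays a group limit what can be told.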
